A study of Mus musculus with 11 samples.

Results

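*Car3*, *Ces1d*, *Kcna2* and *Gm20033* are 4 genes of the 52636 counted in fetal liver at E15.5, selected on these data because each was lower in Casp8 Tnfr1 dKO livers than in every other genotype. The data are bulk RNA-seq of 11 untreated mouse livers: 3 WT, 2 Tnfr1 KO, 3 Casp8 Mlkl dKO and 3 Casp8 Tnfr1 dKO. Caspase-8 is a protease that starts apoptosis and holds back necroptosis, TNFR1 is a receptor for the cytokine TNF, and MLKL is the protein that breaks the plasma membrane in necroptosis. Tnfr1 KO livers lack TNFR1 alone, Casp8 Mlkl dKO livers lack caspase-8 and MLKL, and Casp8 Tnfr1 dKO livers lack caspase-8 and TNFR1 but keep the *Mlkl* gene. All alleles are germline ones on a C57BL/6N background, so every cell of the embryo carried them.

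The fetal liver at this stage is mostly a blood-forming organ, in which erythroid cells mature among hepatoblasts that are beginning to take on the enzymes of adult hepatocytes. The 4 genes have different known roles. *Car3* encodes carbonic anhydrase 3, an abundant cytosolic protein of muscle, fat and adult liver that hydrates carbon dioxide far more slowly than its relatives. *Ces1d* encodes a carboxylesterase of the endoplasmic reticulum of hepatocytes and fat cells that hydrolyses stored triglyceride, which in liver feeds the secretion of very low density lipoprotein. *Kcna2* encodes a pore-forming subunit of the Kv1 voltage-gated potassium channels, best known for setting the excitability of axons. *Gm20033* is a non-coding transcript with no function known to the annotation used here.

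In the GRCm38 annotation *Car3* is a protein-coding gene at chr3:14863512-14872523 on the plus strand, with 1679 exonic bases counted. *Ces1d* is a protein-coding gene at chr8:93166068-93197838 on the minus strand, with 2004 counted bases. *Kcna2*, at chr3:107101146-107115005 on the plus strand, has the longest counted exons, 11906 bases. *Gm20033* (a processed transcript) lies at chr5:64708207-64804117 on the minus strand and has 1301 counted bases. It overlaps *Klf3* head to head on the other strand and shares 104 exonic bases, 7.99% of its own, with the transcript *C230096K16Rik*. Since no source used here says whether the counting used strand, reads on that stretch cannot be assigned to either gene with certainty. Of the 50-base stretches, the length of the reads, in all its annotated transcripts, 13.1% also occur in another gene, mainly *Klf3*. For *Car3* this share is 0, for *Kcna2* 0.515% and for *Ces1d* 1.08%. The counted exons of *Gm20033* share 0 bases with those of *Klf3*, so how far this share affects its low counts is uncertain.

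Of the 4 genes, RefSeq promoters (GRCm38.p6, 250 bases before to 50 after the start) were at hand for *Kcna2*. It is shown because *Kcna2* had the widest fold difference, beside that of *Ces1g*, a neighbour of *Ces1d* that was also lower. Both RefSeq starts lie inside the genes as the GRCm38 annotation used for position draws them. That annotation begins *Kcna2* at base 107101146 and puts the outer end of *Ces1g*, on the minus strand, at base 93337308. Bases before these starts can therefore belong to the annotated gene. Capitals mark 3 short promoter motifs, spelled out after the sequences, on either strand.
Kcna2 (chr3:107101317-107101616, plus strand): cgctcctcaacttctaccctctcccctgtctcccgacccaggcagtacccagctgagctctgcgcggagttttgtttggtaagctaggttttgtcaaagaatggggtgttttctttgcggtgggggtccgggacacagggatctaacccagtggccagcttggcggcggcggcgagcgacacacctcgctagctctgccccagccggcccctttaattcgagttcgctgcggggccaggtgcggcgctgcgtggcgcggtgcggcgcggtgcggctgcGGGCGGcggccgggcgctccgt
Ces1g (chr8:93337160-93337459, minus strand): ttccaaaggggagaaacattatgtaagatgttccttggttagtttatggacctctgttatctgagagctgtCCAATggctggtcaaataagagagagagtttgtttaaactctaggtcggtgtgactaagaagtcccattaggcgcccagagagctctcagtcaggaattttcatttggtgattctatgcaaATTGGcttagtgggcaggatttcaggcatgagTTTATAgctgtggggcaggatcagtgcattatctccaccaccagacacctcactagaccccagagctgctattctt

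The *Kcna2* window holds 31 CG dinucleotides, more than 89.4% of all 32851 promoters of this length, and 1 GGGCGG that begins at base 29 after the start. The *Ces1g* window holds 2 CG dinucleotides against a median of 7, with TATAAA on the reverse strand 26 bases before the start and CCAAT at 179 bases and, on the reverse strand, 58 bases before it. TATAAA, the TATA box, occurs on either strand in 13.6% of all promoters, CCAAT in 37.4% and GGGCGG, the core of the GC box, in 35.7%. Neither window holds AGGTCA or CACGTG on either strand, which occur in 16.3% and 7.15% of promoters. The 2 windows are thus unlike in CG content.

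Library totals lay between 23129212 and 35819339 reads. *Casp8* fell from 30.6 ± 2.98 CPM (reads scaled to the library size, SD, n = 3) in WT to 9.08 ± 1.2 in Casp8 Mlkl dKO livers (n = 3) and to between 11.5 and 21.9 in the 3 Casp8 Tnfr1 dKO livers. *Mlkl* was at 4.32 ± 0.121 CPM in WT and 0.994 ± 0.248 in Casp8 Mlkl dKO livers. *Tnfrsf1a*, the gene for TNFR1, was at 51.1 ± 3.46 CPM in WT and 50.1 ± 0.477 in Tnfr1 KO livers (n = 2), so a count over the whole gene does not check that label. Of the 11 livers, 2 stood apart. Casp8 Mlkl dKO replicate 1 had the highest sum of 12 hepatocyte markers, 246000 CPM against 53600 to 121000 in the others. Casp8 Tnfr1 dKO replicate 3 was the only liver with *Xist* (3410 CPM) and almost no *Ddx3y* (0.057 CPM), that is, the only female, and its striated muscle markers summed to 1770 CPM against 22.3 to 50.9 elsewhere. Some results below are also given without these livers. Others, such as most values of single genes in the pathway and cell type lists, are given with all 11 livers only.

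*Car3* was the most abundant of the 4 genes. In WT livers it stood at 214, 214 and 178 CPM, in Tnfr1 KO livers at 228 and 242 CPM, in Casp8 Mlkl dKO livers at 121, 127 and 154 CPM, and in Casp8 Tnfr1 dKO livers at 26.8, 19.4 and 23.5 CPM. The genotypes formed 3 steps that did not overlap, with the Casp8-intact livers on top, Casp8 Mlkl dKO livers below them and Casp8 Tnfr1 dKO livers at the bottom. The fold difference of Casp8 Tnfr1 dKO was 8.7 against WT, 10.1 against Tnfr1 KO and 5.76 against Casp8 Mlkl dKO livers. The liver with the high muscle markers had 23.5 CPM, and the part of muscle RNA in the *Car3* levels was not tested.

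*Ces1d* stood at 56.7, 49.6 and 37.2 CPM in WT livers and at 70.7 and 56.4 CPM in Tnfr1 KO livers. In Casp8 Mlkl dKO livers it was 107, 18.1 and 18 CPM, and in Casp8 Tnfr1 dKO livers 6.13, 3.48 and 5.07 CPM. Casp8 Mlkl dKO replicate 1 was thus the highest of all 11 livers, while the other 2 of its genotype were below every Casp8-intact liver. Casp8 Tnfr1 dKO livers were 9.76-fold lower than WT, 13-fold lower than Tnfr1 KO and 9.71-fold lower than Casp8 Mlkl dKO livers. The last value depends on replicate 1: without it the log2 difference from Casp8 Mlkl dKO livers was -1.88 instead of -3.28.

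*Kcna2* was a low transcript for its length. WT livers had 6.84, 5.58 and 6.79 CPM, Tnfr1 KO livers 8.48 and 6.76 CPM, Casp8 Mlkl dKO livers 10.9, 3.05 and 3.82 CPM, and Casp8 Tnfr1 dKO livers 0.519, 0.0688 and 0.684 CPM. The same Casp8 Mlkl dKO liver that was highest in *Ces1d* was highest in *Kcna2*, and the other 2 were again below all Casp8-intact livers. The 3 Casp8 Tnfr1 dKO values are 17, 2 and 12 reads, against 100 to 310 reads in every other liver. Pooled over livers and scaled by library size, 31 reads against 1444 give a ratio of 0.0604. The fitted log2 fold change was -3.96 against WT, -4.21 against Tnfr1 KO and -3.84 against Casp8 Mlkl dKO livers. Against WT it was -3.41 without Casp8 Tnfr1 dKO replicate 2, the liver with 2 reads. Against Casp8 Mlkl dKO livers it was -3.06 without Casp8 Mlkl dKO replicate 1, the liver highest in *Kcna2*.

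*Gm20033* was near the limit of detection everywhere. It had 10, 8 and 11 reads in WT livers, 13 and 13 in Tnfr1 KO livers, 11, 15 and 8 in Casp8 Mlkl dKO livers, and 3, 2 and 1 in Casp8 Tnfr1 dKO livers. No Casp8 Tnfr1 dKO liver reached the lowest of the other 8, and among those 8 the genotypes overlapped. Summed over livers and scaled by library size, 6 reads against 89 give a ratio of 0.19. Its 95% exact interval of 0.0678 to 0.429 covers the counting error of so few reads, not the spread between livers, and is no test, since the gene was selected on this contrast.

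**Figure D1:**
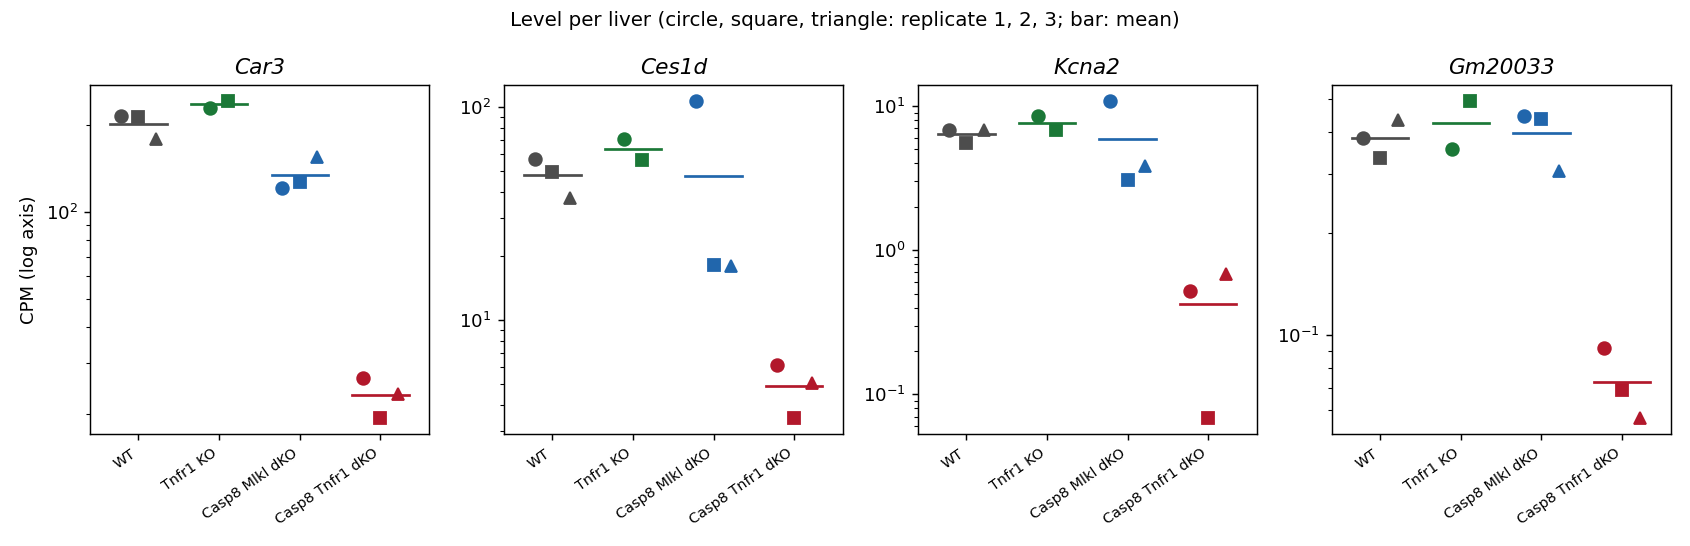
CPM of the 4 genes in each of the 11 livers, on a log axis that differs between panels. Circles, squares and triangles are replicates 1, 2 and 3 and bars are means; Casp8 Tnfr1 dKO livers are lowest in every panel, and Casp8 Mlkl dKO replicate 1 is the highest liver for *Ces1d* (107 CPM) and *Kcna2* (10.9 CPM) but not for *Car3*.

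Set on a scale per length, the 4 genes span a wide range. In WT livers the mean level was 120 ± 12.3 RPKM (CPM per kilobase of counted exon, SD, n = 3) for *Car3*, 23.9 ± 4.94 for *Ces1d*, 0.537 ± 0.06 for *Kcna2* and 0.295 ± 0.0379 for *Gm20033*. *Car3* was above 97.9% of the 17243 tested genes and *Ces1d* above 83.5%, whereas *Kcna2* and *Gm20033* were above 19.7% and 13.3%. In Casp8 Tnfr1 dKO livers the mean was 13.8 ± 2.18 RPKM for *Car3*, still above 72.1% of genes, and 2.44 ± 0.667 for *Ces1d*, above 35.7%. *Kcna2* (0.0356 ± 0.0267 RPKM) and *Gm20033* (0.0557 ± 0.0135) were then among the lowest tested genes. The order of *Car3*, *Ces1d* and the other 2 did not change, and *Kcna2* and *Gm20033* did not differ beyond their spread in Casp8 Tnfr1 dKO livers.

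All 4 genes passed the filter on low counts, and the calls given here came from edgeR's quasi-likelihood test across all 17243 tested genes. Of those genes 0.702% were called lower in Casp8 Tnfr1 dKO than in WT livers, 0.122% than in Tnfr1 KO and 0.116% than in Casp8 Mlkl dKO livers. All 3 calls together were met by 7 genes (0.0406%), these 4 and *Fcna*, *Folr2* and *Kcnj10*, and every Casp8 Tnfr1 dKO liver lay below all 8 others in 3.32% of genes. The 3 comparisons share the Casp8 Tnfr1 dKO livers. The 4 genes are not those with the widest falls: by log2 fold change from WT they rank 8 (*Kcna2*), 12 (*Ces1d*), 15 (*Car3*) and 37 (*Gm20033*) from the lowest. Just inside the threshold are *Ces1d* and *Gm20033*, and just outside it is *Slc17a3*, with log2 fold changes of -1.28, -1.42 and -1.18 against WT, Tnfr1 KO and Casp8 Mlkl dKO livers. *Fcna* and *Folr2*, which resident liver macrophages express, had means of 11.6 and 0.7 CPM in Casp8 Tnfr1 dKO and 49.5 and 4.57 CPM in WT livers. *Kcnj10*, an inward rectifier potassium channel, had 0.639 and 3.39 CPM.

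The 4 genes were not chosen for differences among the other 3 genotypes, which were tested. These tests are not fully independent of the choice, since it used the level of each of these genotypes against Casp8 Tnfr1 dKO livers. Loss of TNFR1 alone moved none of them past the threshold. Tnfr1 KO minus WT was 0.22 (SE 0.177) on the log2 scale for *Car3*, 0.41 (SE 0.669) for *Ces1d*, 0.25 (SE 0.636) for *Kcna2* and 0.13 (SE 0.412) for *Gm20033*, each with an edgeR adjusted p of 1. By edgeR 0% of all genes were called in this comparison, with 186 genes at an unadjusted p under 0.05, and limma-voom and DESeq2 also called 0. With these genotypes fitted alone edgeR called 121 genes lower and 138 higher, and without both livers that stood apart 56 and 59, with none of the 4 genes among them.

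*Car3* was lower in 3 of 3 Casp8 Mlkl dKO livers than in any Casp8-intact liver, but edgeR did not call it. Casp8 Mlkl dKO minus WT was -0.59 (SE 0.16, edgeR adjusted p = 0.71), and minus Tnfr1 KO -0.81 (SE 0.176, adjusted p = 0.607), with unadjusted p values of 0.00407 and 0.00097. In each of these comparisons 0.0058% of genes, 1 gene, was called. Against the 5 Casp8-intact livers as a group, the difference in mean log2 CPM of *Car3* was -0.69 (exact permutation test, two-sided, p = 0.0357, the smallest that 56 splits allow; 4 genes were compared, without adjustment). Among all tested genes 3.03% had every Casp8 Mlkl dKO liver below the 5. *Ces1d* (-0.7, exact permutation p = 0.286) and *Kcna2* (-0.43, p = 0.321) were below all 5 in 2 of 3 livers, and *Gm20033* (-0.02, p = 1) in 1 of 3.

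The calls, and the sizes for *Ces1d* and *Kcna2*, changed without the 2 livers that stood apart. With both left out, a choice made after seeing the data, edgeR called *Ces1d* lower in Casp8 Mlkl dKO than in WT livers (-1.4, adjusted p = 0.00107) and than in Tnfr1 KO livers (-1.81, adjusted p = 0.000283). *Car3* was called as well, with differences close to those of all livers, at -0.52 (adjusted p = 0.0196) and -0.74 (adjusted p = 0.00499). *Kcna2* was called against Tnfr1 KO (-1.16, adjusted p = 0.0326) and not against WT (-0.9, adjusted p = 0.0552), and *Gm20033* against neither. With those 9 livers 3.18% of all genes were called lower and 3.23% higher against WT, and 2.31% and 1.19% against Tnfr1 KO, so many genes were called there that were not with 11. With Casp8 Mlkl dKO replicate 1 alone left out, *Ces1d* was at -1.4 and -1.82 and no member was called.

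The 4 genes did not vary together in every liver. Over the 8 livers that are not Casp8 Tnfr1 dKO, Pearson's r of log2 CPM between *Ces1d* and *Kcna2* was 0.954. Between *Car3* and *Ces1d* it was 0.293, and 0.944 without Casp8 Mlkl dKO replicate 1, the liver that was high in *Ces1d* and low in *Car3*. Between *Car3* and *Kcna2* it was 0.252, and 0.89 without that liver. *Gm20033* had r between -0.117 and 0.293 with the others. These are descriptions over 8 or 7 livers that share genotypes and library preparation, and those of *Gm20033* rest on 8 to 15 reads.

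**Figure D2:**
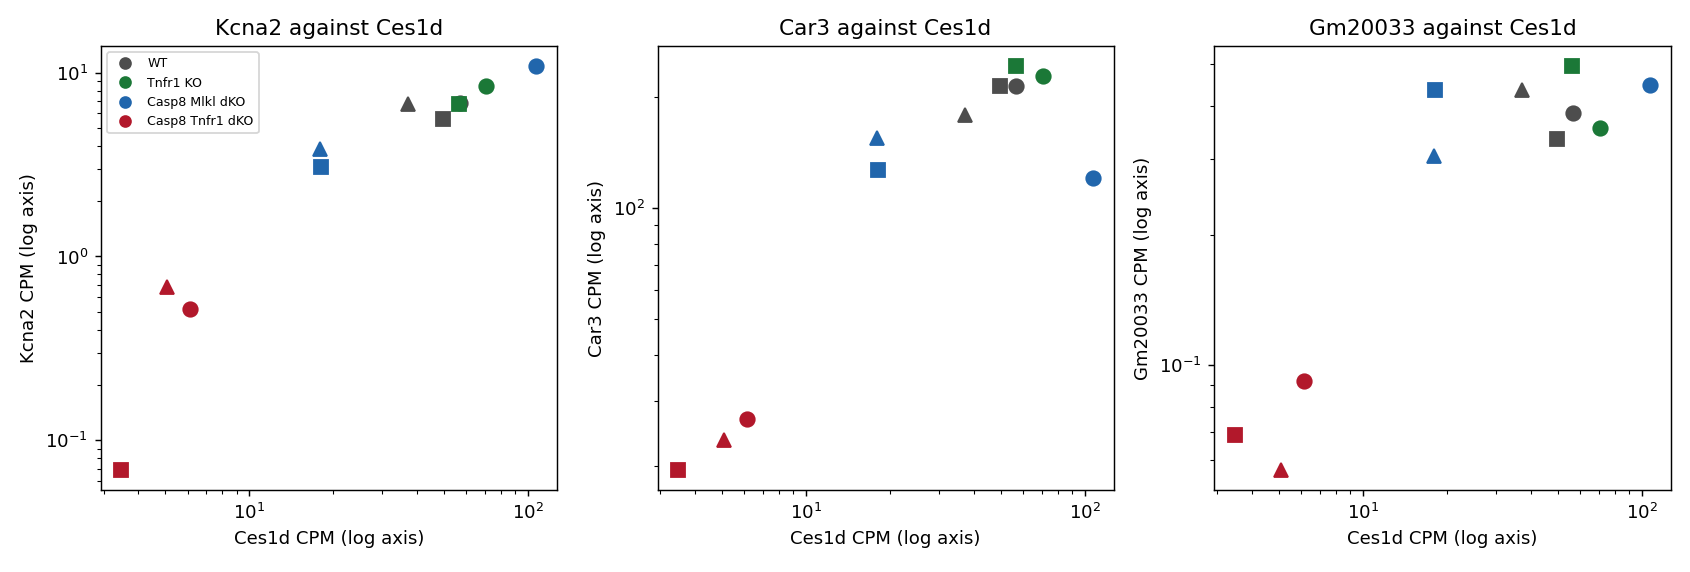
*Kcna2*, *Car3* and *Gm20033* CPM against *Ces1d* CPM in each liver, both axes log, with 1 point a liver and replicates marked as circles, squares and triangles. The 3 Casp8 Tnfr1 dKO livers, for whose low levels the genes were selected, lie at the lower left; Casp8 Mlkl dKO replicate 1 (*Ces1d* at 107 CPM) is highest in *Kcna2* (10.9 CPM) but not in *Car3* (121 CPM).

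The genes most like each member over all 11 livers, by Pearson's r of log2 CPM, overlapped, and many were less alike over the 8 livers that are not Casp8 Tnfr1 dKO, whose r follows in each case. For *Car3* they were *Nynrin* (0.956, then 0.937), *Tpcn1* (0.954, 0.394), *Gm13416* (0.947, 0.766), *Gm20033* (0.944, -0.117) and *Gm15318* (0.943, 0.773). *Nynrin* was at 51.9 to 57.5 CPM in Casp8-intact, 48 to 48.8 CPM in Casp8 Mlkl dKO and 30.2 to 40.1 CPM in Casp8 Tnfr1 dKO livers, the same order as *Car3* over a narrower range. For *Ces1d* they were *Fcna* (0.957, 0.885), *Kcna2* (0.953, 0.954), *Hao1* (0.946, 0.901), *Aspdh* (0.934, 0.917) and *Cyp2a22* (0.929, 0.97). *Hao1*, the glycolate oxidase of hepatocyte peroxisomes, was at 50.8 CPM in Casp8 Mlkl dKO replicate 1, 1.71 to 8.64 CPM in the other 7 livers that are not Casp8 Tnfr1 dKO, and 0.551 to 0.824 CPM in Casp8 Tnfr1 dKO livers. For *Kcna2* they were *Ppm1a* (0.97, 0.75), *Ces1d* (0.953, 0.954), *Nynrin* (0.944, 0.383), *Car3* (0.929, 0.252) and *Fcna* (0.927, 0.836). For *Gm20033* they were *Kcnj10* (0.955, 0.154), *Mavs* (0.949, 0.262), *Gm13416* (0.949, 0.176), *Fcna* (0.946, 0.094) and *Car3* (0.944, -0.117). The fall that chose the members takes part in every r over 11 livers.

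*Ces1d* lies in a row of *Ces1* genes on chromosome 8, all on the minus strand and coding for related carboxylesterases. *Ces1e*, whose gene ends 3.4 kb away, was at 6.98 to 9.03 CPM in WT, 12.9 and 11.1 CPM in Tnfr1 KO, 13, 3.55 and 4.28 CPM in Casp8 Mlkl dKO, and 1.34, 1.03 and 0 CPM in Casp8 Tnfr1 dKO livers. The liver at 0 was Casp8 Tnfr1 dKO replicate 3, and the 3 Casp8 Tnfr1 dKO livers lay below all 8 others. Against the mean of the other 3 genotypes *Ces1e* fell by 3.37 on the log2 scale (SE 0.757, edgeR adjusted p = 0.0211) and *Ces1g* by 2.31 (SE 0.367, adjusted p = 0.004). *Ces1g* was at 12.2, 11.7 and 10.7 CPM in WT, 17 and 11.6 CPM in Tnfr1 KO, 9.16, 4.04 and 4.89 CPM in Casp8 Mlkl dKO and 2.87, 2.03 and 1.03 CPM in Casp8 Tnfr1 dKO livers, again without overlap. The call of *Ces1e* was lost without Tnfr1 KO replicate 1 (adjusted p = 0.0672) or 2 (adjusted p = 0.0597). *Ces1c* (-1.78, adjusted p = 0.201) and *Ces1f* (-1.4, adjusted p = 0.203) did not pass, although *Ces1f*, with 3, 3 and 10 reads in Casp8 Tnfr1 dKO livers, was called without replicate 3 of them (-2.61, adjusted p = 0.0272). *Ces1a*, *Ces1b* and *Ces1h* had too few reads to test. *Ces1e* and *Ces1g* share 2.97% and 1.67% of their 50-base stretches with other genes.

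Of the 9 tested carboxylesterases other than *Ces1d*, 2 were called lower and 0 higher in Casp8 Tnfr1 dKO against the mean of the other genotypes, where 0.829% of all genes were called lower and 8.82% higher. Their median log2 fold change was -1.28, beside -0.023 for all genes. Against WT *Ces1e* and *Ces1g* were both called, against Tnfr1 KO *Ces1g* alone, and against Casp8 Mlkl dKO neither. The 5 tested carboxylesterases outside the *Ces1* row were not called, with *Ces2g* at -0.42 (adjusted p = 0.0648) and *Ces3a* at -1.28 (adjusted p = 0.42). Without both livers that stood apart, 6 of the family were called lower, with 11.3% of all genes called lower and 17% higher.

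**Figure D3:**
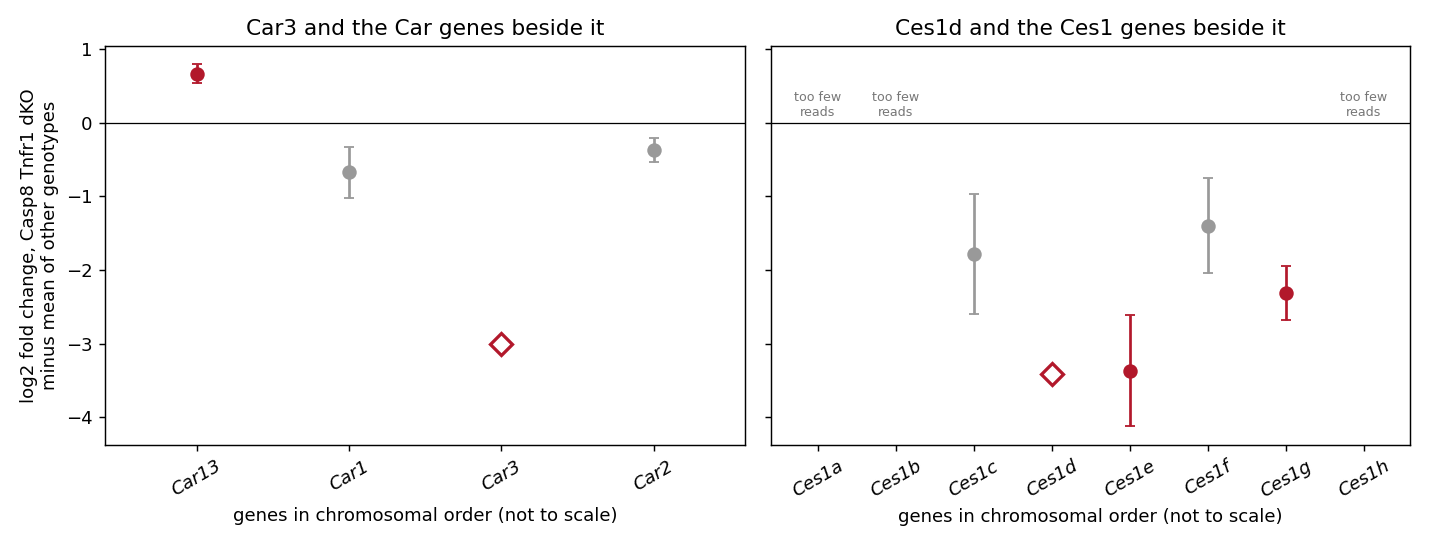
Log2 fold change of Casp8 Tnfr1 dKO livers from the mean of the other genotypes for the *Car* genes beside *Car3* and the *Ces1* genes beside *Ces1d*, in chromosomal order. Open diamonds are *Car3* and *Ces1d*, selected for this fall; circles with SE bars are the others, red where the edgeR adjusted p is under 0.05. *Ces1e* (-3.37) and *Ces1g* (-2.31) lie low with *Ces1d*, whereas *Car13* (0.67) lies above 0.

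With all livers included, none of the 3 tested neighbours of *Car3* was called lower against the mean of the other genotypes. *Car2*, the abundant carbonic anhydrase of red cells, 13.8 kb away, was at 3414 to 3554 CPM in WT and 2044 to 2737 CPM in Casp8 Tnfr1 dKO livers (-0.37, SE 0.164, adjusted p = 0.186). Without Casp8 Tnfr1 dKO replicate 3 alone, *Car2* was called lower (-0.51, edgeR adjusted p = 0.0354). *Car1*, another red cell enzyme 55.1 kb away, was at -0.67 (SE 0.347, adjusted p = 0.248). *Car13* rose by 0.67 against the mean of the other genotypes (SE 0.13, adjusted p = 0.0113). It was at 5.47 to 6.67 CPM in Casp8-intact, 6.97 to 8.57 CPM in Casp8 Mlkl dKO and 9.46 to 10.8 CPM in Casp8 Tnfr1 dKO livers. Against Casp8 Mlkl dKO livers alone the difference was 0.4 (edgeR adjusted p = 0.285). Of the 13 tested carbonic anhydrases other than *Car3*, 0 were called lower and 3 higher, *Car13*, *Car12* (1.27, adjusted p = 0.0166) and the membrane-anchored *Car4* (5, adjusted p = 0.00908), with a median of -0.37. Against WT 5.1% of all genes were called higher, and of the family *Car12* and *Car13*. Against Tnfr1 KO, where 2.05% were called higher, it was *Car13*, and against Casp8 Mlkl dKO (1.54%) none. The *Car4* value depends on Casp8 Tnfr1 dKO replicate 3, since without it the log2 fold change was 2.72. No carbonic anhydrase was called without Tnfr1 KO replicate 1, with adjusted p = 0.0584 for *Car13*, 0.0777 for *Car12* and 0.0559 for *Car4*. Without both livers that stood apart 3 of the family were called lower, *Car2* (-0.53, adjusted p = 3.94e-05) among them, and 4 higher. In that setting 11.3% of all genes were called lower and 17% higher.

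*Kcna2* sits between *Kcna3* and *Kcna10* on chromosome 3. *Kcna3*, a Kv1 channel of lymphocytes 63.1 kb away, had a log2 fold change of -0.3 (SE 0.724, adjusted p = 0.8), with 0 reads in Casp8 Tnfr1 dKO replicate 3 and 1.43 and 2.34 CPM in the other 2, inside the range of the 8 other livers (0.587 to 2.54 CPM). *Kcna10* had too few reads to test. None of the 6 tested genes within 250 kb of *Kcna2* was called. Of the 6 tested Kv1 subunits other than *Kcna2*, 0 were called in either direction, with a median of 0.3. *Kcna6* (1.55, adjusted p = 0.119) and the beta subunit *Kcnab1* (1.17, adjusted p = 0.121) had positive values that missed the threshold.

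Around *Gm20033*, *Klf3*, a transcription repressor whose start lies within it, was at -0.25 (adjusted p = 0.278) and *C230096K16Rik* at 0.78 (adjusted p = 0.303). Of 6 tested neighbours 2 were called higher, in a comparison where 8.82% of all genes were, the Toll-like receptors *Tlr1* (1.68, adjusted p = 0.000878) and *Tlr6* (1.32, adjusted p = 0.0385), 120.6 and 147.9 kb away.

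The pathways around *Ces1d* are read beside all genes, of which 0.829% were called lower and 8.82% higher in this comparison. Of 22 tested genes of triglyceride storage and hydrolysis, 2 were lower, *Ces1g* and the monoglyceride lipase *Mgll* (-0.81, adjusted p = 0.029). The 2 that were higher were *Dgat1* (2.03, adjusted p = 0.0159), which makes triglyceride, and *Hilpda* (3.26, adjusted p = 0.0349), an inhibitor of its breakdown. The median was 0.03. Of 18 targets of PPAR-alpha, the nuclear receptor of fatty acid oxidation, 1 was called, *Vnn1* (3.67, adjusted p = 0.000531, higher), with a median of -0.14. Of 13 genes of the growth hormone and STAT5 axis, which sets the sex-dependent level of many liver genes, 2 were higher, *Bcl6* (2.86, adjusted p = 0.00539) and *Cyp7b1* (2.06, adjusted p = 0.0295), with a median of 0.01. These counts are small and moved with single livers: of the triglyceride genes 1 to 4 were called lower and 0 to 7 higher with 1 liver left out, most without Casp8 Mlkl dKO replicate 1 and none higher without either Tnfr1 KO liver. Without both livers that stood apart they were 6 and 9, for the PPAR-alpha targets 4 and 4, and for the growth hormone axis 3 and 3. Of all genes 11.3% were called lower and 17% higher in that setting.

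In bulk tissue fewer hepatocytes and less RNA per hepatocyte cannot be told apart. None of the 12 hepatocyte markers was called lower or higher (median -0.15), and none was at 0 reads in any liver. Their sum was 63000, 61700 and 121000 CPM in Casp8 Tnfr1 dKO livers, 62400 to 76900 CPM in WT and 74800 and 82100 CPM in Tnfr1 KO livers. In Casp8 Mlkl dKO livers the sums were 53600, 64900 and, in replicate 1, 246000 CPM, and the part of hepatocyte content in the levels of the 4 genes was not tested. Of 17 later hepatocyte enzymes, *Ugt2b1* was lower (-1.26, adjusted p = 0.0481) and *Pck1* higher (2.94, adjusted p = 0.0465), with a median of -0.47. With any 1 of the 3 WT or 2 Tnfr1 KO livers left out neither was called. Over all livers left out in turn, 0 to 1 of these enzymes were called lower and 0 to 2 higher. Each of these 2 counts changed for 9 of the 11 livers. Without both livers that stood apart 6 of the hepatocyte markers and 6 of the later enzymes were called lower, and 2 and 3 higher. Among all genes 11.3% were then called lower and 17% higher.

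The counts that follow stand beside 0.829% of all genes called lower and 8.82% called higher. Without both livers that stood apart these shares were 11.3% and 17%. Of 12 macrophage markers, *Timd4* (-1.84, adjusted p = 0.0298) and *Marco* (-1.9, adjusted p = 0.00842) were lower and *Cd68* (0.79, adjusted p = 0.0129) higher, with 1 to 4 lower when 1 liver was left out and sums of 402 to 545 CPM in Casp8 Tnfr1 dKO and 565 to 1720 CPM in the other livers. Of 10 erythroid markers 0 were called, with sums of 25100, 25300 and 75700 CPM against 27700 to 40100 CPM, and without both livers that stood apart all 10 were called lower. All 14 tested striated muscle genes were called higher (median 5.7), with sums of 50.9, 31.2 and 1770 CPM. Called higher were 2 without replicate 3, 5 without both livers that stood apart, 0 without either Tnfr1 KO liver and 0 by limma-voom. Of 5 tested adipocyte genes 2 were higher, *Fabp4* and *Pparg*, and of 7 neuron and glia genes 2, *Tubb3* and *Stmn2*, with 0 to 3 called when 1 liver was left out and 0 without any 1 of the 3 WT or 2 Tnfr1 KO livers. *Xist* was the 1 sex chromosome gene called, and was not without Casp8 Tnfr1 dKO replicate 3 or either Tnfr1 KO liver. The part of these cells in the levels of the 4 genes was not tested.

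**Figure D4:**
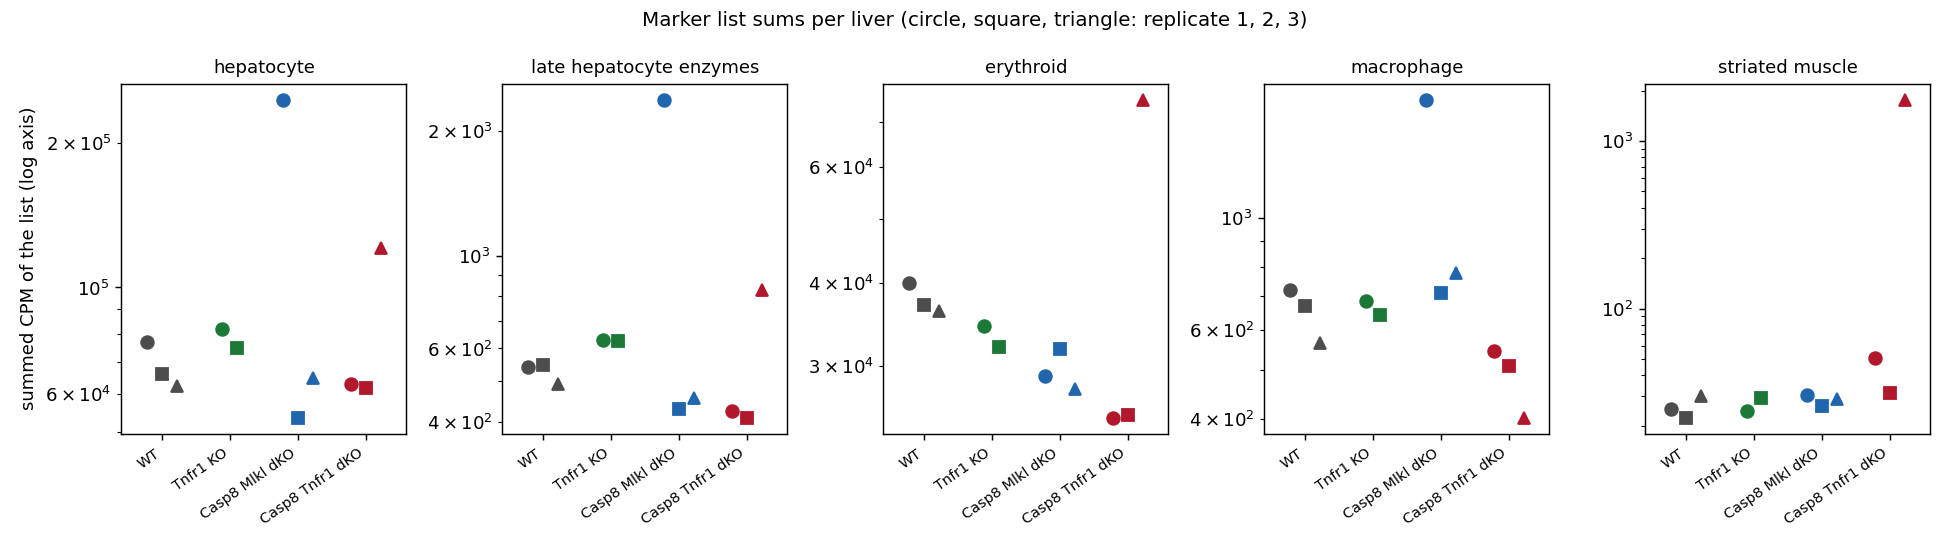
Summed CPM of 5 lists of cell type markers in each liver, on log axes that differ between panels, with replicates 1, 2 and 3 as circles, squares and triangles. Casp8 Mlkl dKO replicate 1 is high in hepatocyte (246000 CPM) and macrophage markers (1720 CPM), and Casp8 Tnfr1 dKO replicate 3 in striated muscle (1770 CPM) and erythroid markers (75700 CPM).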

How the data were processed

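RNA of fetal livers was sequenced as single-end reads of 50 bases. The labels name a TruSeq kit that does not mark strand and the methods a stranded one. Reads were aligned with GSNAP to GRCm38 and uniquely mapped reads kept; the counting tool and its strand setting are not given in the sources used here. The authors deposited, for each liver, unnormalized counts of reads per gene, the gene's width in bases and an RPKM value. The deposited widths equalled those of GENCODE M 21 basic exons for 94.9% of 52403 named genes.

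Counts were normalized by TMM and the 4 genotypes fitted together with edgeR 4.0.16 (glmQLFit, glmQLFTest; R 4.3.3), on the 17243 genes that passed filterByExpr (min.count of 10). Adjusted p values are Benjamini-Hochberg over all of these, with a threshold of 0.05. Casp8 Tnfr1 dKO was compared with each genotype and with their mean, and the others with each other. CPM and RPKM shown here use TMM library sizes, and log2 CPM a prior count of 2; the deposited RPKM values served only as a check. Intervals cover counting error only and treat reads as independent molecules, which they are not, so they may be too narrow. Replicates are the livers the labels number; p values measure the spread between them. Chi-square per degree of freedom was at least 5.22 between any 2 livers. The method was also run on simulated counts in which no liver stood apart, so that run does not check how such livers act on the results.

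The members and the gene lists were chosen with earlier results of these data known, and the members for the contrasts of Casp8 Tnfr1 dKO, for which they are described without a test. Named are the members, genes called lower in all 3 comparisons, the 5 genes most like each member, family members, neighbours within 250 kb and up to 3 genes of each other list with the smallest p. Alternatives were limma-voom (limma 3.58.1), DESeq2 1.42.0 and its size factors, other filters, only the genotypes compared, a replicate block, a prior count of 0.5, Spearman's rho, and each liver left out. Python 3.11.15 drew the figures.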

Additional observations from a re-analysis of the deposited data

How the results depend on the processing

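The falls of the 4 genes in Casp8 Tnfr1 dKO livers kept their direction under every alternative that gave a value. That is no test, since the genes were selected for these falls and every Casp8 Tnfr1 dKO liver lay below all 8 others. *Gm20033* had no value with a mean of at least 10 counts. With limma-voom the *Gm20033* difference was -2.11 from WT and -2.2 from Tnfr1 KO, and leaving out each liver in turn gave -2.5 to -2.19 and -2.67 to -2.2. The *Ces1d* difference from Casp8 Mlkl dKO ranged from -3.65 to -1.88 (-1.88 also without both livers that stand apart). For Casp8 Mlkl dKO minus WT, *Ces1d* was 0.01 with DESeq2's size factors and with its Wald test, and -1.4 to 0.38 with a liver left out, *Kcna2* -0.9 to 0.19, and *Gm20033* -0.05 to 0.19, and -0.03 without both. *Gm20033* ranged from -0.31 to 0.15 against Tnfr1 KO, from -0.11 to 0.36 for Tnfr1 KO minus WT, and from -0.1 to 0.13 against Casp8-intact livers. *Car3* ranged there from -0.79 to -0.62, where 1 liver less no longer allows a p under 0.05 (exact permutation p 0.0571 to 0.0952). DESeq2's Wald test called *Car3* in Casp8 Mlkl dKO minus Tnfr1 KO (-0.81, adjusted p = 0.0167). Without both livers that stand apart *Car3* was -0.52 and -0.74, *Ces1d* -1.4 and -1.81 and *Kcna2* -1.16, all called. Carbonic anhydrases called lower numbered 0 to 1 with a liver left out and 3 without both, and called higher 0 to 5, and 5 by DESeq2. Carboxylesterases called lower numbered 1 to 3, and 6 without both. Kv1 subunits called higher numbered 0 to 1, and 1 without both. With both left out, 11.3% of all genes were called lower and 17% higher. The causes were not tested.

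The values did not show a pairing of livers by replicate number: 4 of 15 same-number pairs correlated above 0.1, and 6 of 11 livers lay closer to their own number. With so few livers in each genotype this check cannot exclude a pairing. With the replicate block *Car3* was -0.6 in Casp8 Mlkl dKO minus WT (edgeR adjusted p = 0.993) and genes called lower against the mean fell from 143 to 55. Over all genes that count was 607 by DESeq2, 25 to 446 with a liver left out and 1923 without both. Of the 5 genes most like each member, Spearman's rho shared 1 for *Car3* and 0 for the others.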
